A study of Mus musculus with 3 samples.

Results

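The CXCL12 axis was taken as 4 genes: the chemokine ligand Cxcl12, its signalling receptor Cxcr4, its atypical receptor Ackr3 and the protease Dpp4. The genes were picked by name, with earlier results of these data known, each was represented by a probe set annotated to that symbol alone, and all 4 were measured among 19938 genes with such a probe set. The probe sets are 10541075 for Cxcl12, 10357472 for Cxcr4, 10348451 for Ackr3 and 10483046 for Dpp4. Expression was read on 3 Affymetrix arrays of stromal cells sorted by flow cytometry from the marrow of mouse tibia, femur and pelvis at baseline. The 2 CAR arrays held CXCL12-abundant reticular cells of 2 knock-in mice with GFP at the Cxcl12 locus, with zygosity and sorting gate not stated in the labels. The single PaS array held a pool from 3 mice carrying Prx1-Cre, the Rosa26 reporter Ai9 as 1 copy (Rosa26Ai9/+) and the GFP allele as 1 copy (Cxcl12gfp/+), gated as PDGFRα+ and Sca-1+ but negative for CD45 and lineage markers. Both populations thus came from mice with GFP at the very gene whose transcript is reported here; genotype and cell type differed together, and Prx1-Cre is a driver of limb mesenchyme. The labels state no ages.

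CXCL12 is the chemokine that keeps hematopoietic stem cells and B cell progenitors in the marrow, where reticular stromal cells are its main source. It signals through CXCR4, a receptor coupled to inhibitory G proteins and found on most blood cells, and it is also bound by ACKR3, which recruits arrestin and removes the chemokine from the surroundings rather than signalling through G proteins. DPP4, a membrane dipeptidyl peptidase also known as CD26, cuts the first residues from the chemokine, and the shortened form no longer activates CXCR4. The study, by its title, concerned the CXCL12 made by early mesenchymal progenitors, and the arrays set one stromal population with abundant CXCL12 beside one gated on progenitor markers.

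The labels were checked against the genes of the gates. Pdgfra, the receptor on which PaS cells were gated, had log2 intensities of 7.52 and 7.97 on the CAR arrays, against 4.33 on the PaS array. Ptprc, which encodes the CD45 that the gate excluded, stood at 5.11 and 5.01 on the CAR arrays and at 8.27 on the PaS array. Prrx1, the gene of the Prx1-Cre driver and a marker of limb mesenchyme, stood at 7.76 and 8.06 on the CAR arrays, against 5.24 on the PaS array. Pdgfra and Ptprc run against the gate in the label of that array, and Prrx1 was lower there too, so it is called the array labelled PaS from here on, and since it is the only one of its kind no result can be given without it. Ly6a, the gene of Sca-1, is not analysed here. The values of all genes had medians of 3.74 and 3.75 on the CAR arrays and 3.77 on the array labelled PaS. Lower quartiles were 2.86 and 2.73 in CAR cells and 3.16 on the array labelled PaS, whose low end thus lay higher. Upper quartiles were 4.82 and 5.01 in CAR cells and 4.52 on the array labelled PaS, whose high end thus lay lower. The median log2 difference, CAR minus PaS, was -0.40 over genes with a mean below the median level and 0.37 over the rest. Differences of dim genes and lists are to be read beside the former.

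The region upstream of each start site is shown so that the control sequences of the ligand, the receptors and the protease can be compared. The 4 runs are the 250 bases before the RefSeq start (build GRCm38.p6), read 5′ to 3′ on the strand of the gene; capitals mark each match to the GC box GGGCGG and to the TATA box TATAAA on either strand. They lie at chr6:117168285-117168534 on the plus strand for Cxcl12, chr1:128592300-128592549 on the minus strand for Cxcr4, chr1:90203730-90203979 on the plus strand for Ackr3 and chr2:62412232-62412481 on the minus strand for Dpp4.
Cxcl12: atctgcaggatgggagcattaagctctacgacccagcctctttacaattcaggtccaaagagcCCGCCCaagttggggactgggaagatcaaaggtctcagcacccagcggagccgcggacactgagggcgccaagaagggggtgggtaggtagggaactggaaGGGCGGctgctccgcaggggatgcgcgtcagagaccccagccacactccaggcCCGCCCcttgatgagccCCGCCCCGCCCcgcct
Cxcr4: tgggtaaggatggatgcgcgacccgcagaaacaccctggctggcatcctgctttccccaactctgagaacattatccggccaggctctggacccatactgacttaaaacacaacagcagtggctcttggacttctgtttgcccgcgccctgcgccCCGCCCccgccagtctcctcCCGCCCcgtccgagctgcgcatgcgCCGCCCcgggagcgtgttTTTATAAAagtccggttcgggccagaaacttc
Ackr3: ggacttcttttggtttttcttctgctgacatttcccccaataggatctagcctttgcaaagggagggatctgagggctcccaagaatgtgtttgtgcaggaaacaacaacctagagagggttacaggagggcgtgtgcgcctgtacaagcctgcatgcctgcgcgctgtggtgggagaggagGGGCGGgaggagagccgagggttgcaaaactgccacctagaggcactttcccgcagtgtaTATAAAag
Dpp4: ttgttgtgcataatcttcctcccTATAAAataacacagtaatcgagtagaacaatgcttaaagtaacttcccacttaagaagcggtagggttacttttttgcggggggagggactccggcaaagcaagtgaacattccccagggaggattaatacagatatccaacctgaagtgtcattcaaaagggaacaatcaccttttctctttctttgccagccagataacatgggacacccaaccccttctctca
The Cxcl12 run held 5 matches to the GC box, the last pair of which share a base, and 0 to the TATA box. Of 32851 such upstream runs in the RefSeq table, 32.7% held a GC box and 8.47% held 3 or more. The Cxcr4 run held 3 GC boxes and 2 overlapping TATA matches, 1 on each strand, of which the one on the gene's strand began 30 bases before the start. Ackr3 had 1 of each, and Dpp4 had 0 GC boxes and a TATA match that began 227 bases before the start. A TATA box was found in 12.4% of all runs. The share of G and C bases was 64.4% for Cxcl12, 61.2% for Cxcr4, 54.0% for Ackr3 and 43.6% for Dpp4, against a median of 52.4% over all runs.

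The other letters searched belong to factors in the list of Cxcl12 regulators described below. The palindrome bound by EBF factors, TCCC and GGGA with 2 free bases between, was found in the Dpp4 run alone of the 4, from 115 to 106 bases before the start, and in 0.779% of all runs. GCGTG, a core bound by hypoxia-inducible factors, was found in the Cxcr4 and Ackr3 runs and in 28.2% of all runs. The form ACGTG and the forkhead letters TGTTTAC and TATTTAC had no match in the 4 runs; they were found in 16.6%, 3.17% and 2.73% of all runs. Both strands were searched throughout, and a match is a description of the letters, not evidence of binding.

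Cxcl12 was higher in CAR cells, and Cxcr4, Ackr3 and Dpp4 were lower. The ligand thus differed in the opposite direction from its receptors and from Dpp4. This does not extend to every protease that cuts CXCL12: of 10 others measured, 2 rose, Mmp13 and Mmp14, and 3 fell. Cxcr4, Ackr3 and Dpp4 all passed the test, but Dpp4 lost its call with a floor for dim values. Cxcr4 was 6.28-fold lower; Ackr3 and Dpp4 were dim on the CAR arrays, so their differences are given on the log2 scale, with and without a floor for dim values, and no fold is read from them. The test was limma's moderated test over all 19938 genes with Benjamini-Hochberg adjustment and a threshold of 0.05, which called 6.42% of all genes lower in CAR cells, 8.56% higher and 15% in either direction. With a lone array on the other side, the error is estimated from the pair of CAR arrays and borrowed for the array labelled PaS. The CAR arrays are of separate mice, but 2 of them limit the precision of every error given here. In sorted bulk samples, fewer cells that express a gene cannot be told apart from less RNA per cell.

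**Figure D1:**
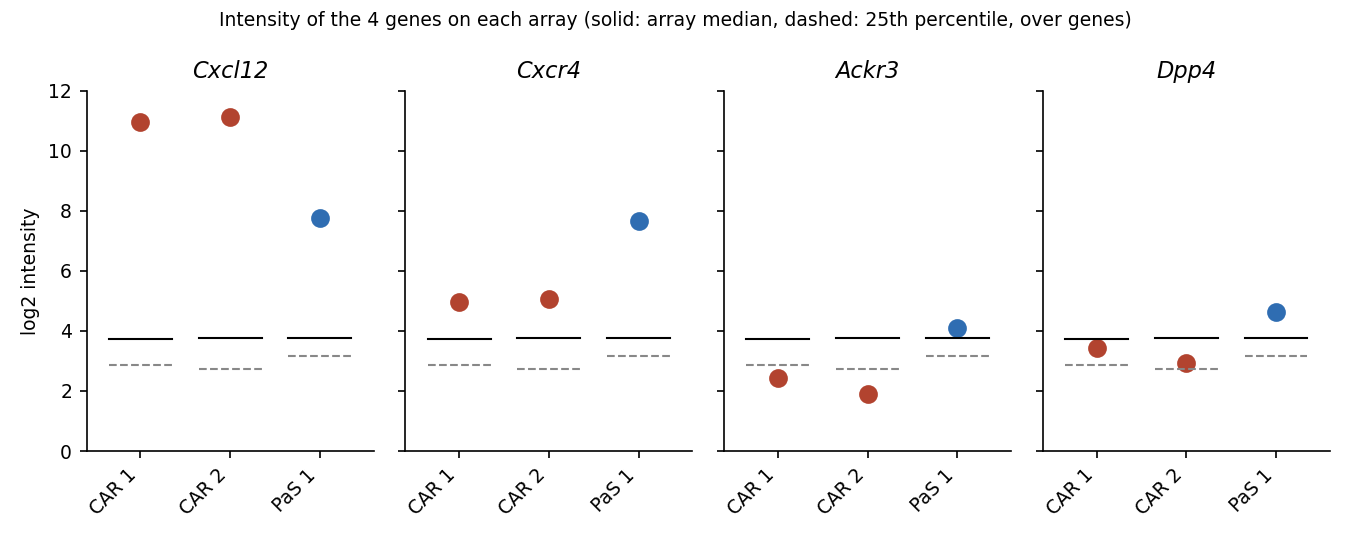
Log2 intensity (vertical axis) of the 4 genes on CAR array 1, CAR array 2 and the array labelled PaS, 1 point per array; solid and dashed lines are that array's median and 25th percentile over all genes. Cxcl12 lies at 10.94 and 11.11 on the CAR arrays and 7.76 on the array labelled PaS, while the other 3 genes lie lower on both CAR arrays.

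The ligand Cxcl12 had log2 intensities of 10.94 and 11.11 on the CAR arrays, against 7.76 on the array labelled PaS. Both CAR values were higher, as was true of 37.4% of all genes. On the linear scale these are intensities of 1962 and 2214 in CAR cells and 216 on the array labelled PaS. The CAR arrays lay 0.17 log2 units apart, and both were over 3 log2 units above the array labelled PaS, where Cxcl12 still lay above the 95th percentile of 6.16. The CAR mean was 11.03 ± 0.12 (SD, n = 2), and the log2 difference was 3.27 ± 0.29 (SE; 95% interval 2.54 to 3.99). CAR cells are named for abundant CXCL12 and carry a reporter at its locus, so the difference describes the sort and no p-value is read from it. Of all genes, 129 (0.647%) had a larger difference toward CAR cells.

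Cxcr4, the receptor through which CXCL12 holds blood cells in the marrow, had log2 intensities of 4.97 and 5.07 on the CAR arrays and 7.67 on the array labelled PaS. The CAR arrays lay 0.11 log2 units apart and below the array labelled PaS, as was true of 46.8% of all genes. Cxcr4 fell by 2.65 log2 units in CAR cells (SE 0.28; 95% interval -3.37 to -1.94; limma adjusted p = 0.0132), and 84 genes (0.421%) had a larger difference in that direction. The CAR values were not at the low end of their arrays: they lay above the upper quartiles of 4.82 and 5.01. Cxcr4 was the gene of the axis with the closest agreement between CAR arrays.

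Markers of blood cells moved the same way as Cxcr4. Of 15 measured leukocyte markers 10 fell and 0 rose in CAR cells, with a median log2 difference of -2.34, against -0.10 over all genes. For this and the blood cell lists that follow, the background is 6.42% of all genes called lower and 8.56% called higher. Cd53, Ptprc and Tyrobp differed most, at -3.57, -3.21 and -3.02. The summed intensity of the list was 862 and 1121 on the CAR arrays, against 4587 on the array labelled PaS. Of 15 neutrophil markers 11 fell and 0 rose (median -2.37), led by the granule genes Camp (-4.33) and Mmp8 (-3.35) and the surface gene Ly6g (-4.06), with summed intensities of 3501 and 3278 in CAR cells and 19113 on the array labelled PaS. Of 13 B lymphoid markers 9 fell and 1 rose (median -1.56). Rag1 (-3.96) and Cd79b (-3.05) differed most downward, and Ebf1 (2.63), also a gene of CAR cells, was the one that rose. The sums were 580 and 481 in CAR cells and 796 on the array labelled PaS. They include Ebf1, the brightest gene of that list in CAR cells, at 8.65 and 8.38 against 5.89 on the array labelled PaS. Of 14 macrophage markers 5 fell and 2 rose (median -0.91), with Fcgr3 (-2.98), C1qc (-2.83) and Vcam1 (2.82) in front. The sums were 1708 and 1968 in CAR cells against 2562 on the array labelled PaS. Vcam1 is a CAR marker too and the brightest gene of that list in CAR cells, at 10.14 and 10.46 against 7.48 on the array labelled PaS. The B lymphoid and macrophage sums in CAR cells thus rest largely on Ebf1 and Vcam1. The values hold no zeros, so brightness was set against the array median: on the CAR arrays 12 of the leukocyte, 14 of the neutrophil, 5 of the B lymphoid and 7 of the macrophage markers had means at or above it, against 15, 15, 11 and 10 on the array labelled PaS. With dim values at the floor described for Ackr3, 3 leukocyte, 4 neutrophil, 4 B lymphoid and 2 macrophage markers were called lower. Of all 19938 genes 2100 were called lower under that setting. The 4 B lymphoid markers so called all had both CAR values on the floor, as had some of the leukocyte and macrophage markers. A call there uses no spread of its own, and some of these genes were not called as reported. The part of the blood cell markers in the Cxcr4 difference was not tested.

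Ackr3, the scavenging receptor, had log2 intensities of 2.42 and 1.89 on the CAR arrays, against 4.09 on the array labelled PaS. Both CAR values lay below the 25th percentile of their array, and the PaS value lay above the median of its own. Ackr3 fell by 1.94 log2 units in CAR cells (SE 0.34; 95% interval -2.80 to -1.07; limma adjusted p = 0.0301). The CAR arrays differed by 0.53 log2 units, the widest gap among the 4 genes. Setting every value under 3.16, the highest of the arrays' 25th percentiles, to that floor left a difference of -0.93, so the size of the fall rests on values at the dim end; both CAR values then sit on the floor, and the call kept there uses no spread of its own. Among genes with a mean below the median level, where Ackr3 and Dpp4 both lie, 8.79% were called lower in CAR cells and 0.492% higher; among the brighter genes, with Cxcl12 and Cxcr4, 4.06% were lower and 16.6% higher.

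Endothelial cells carry Ackr3 in many tissues, and some of their markers were lower in CAR cells too. Of 14 measured, 5 fell and 0 rose, with a median of -0.97 and summed intensities of 210 and 178 in CAR cells against 406 on the array labelled PaS. The share that fell, 35.7%, stands beside 6.42% of all genes called lower and 8.79% of those below the median level. The endothelial cadherin Cdh5 (-3.24), the sialomucin Emcn (-3.13) and the sinusoidal scavenger receptor Stab2 (-1.88) differed most. Markers at or above the array median numbered 4 on the CAR arrays and 10 on the array labelled PaS, and 8 were called lower with the floor. Most of these 8, Emcn among them, had both CAR values on the floor, where a call uses no spread of its own. Some of them were not called as reported. The part of these markers in the Ackr3 difference was not tested.

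Dpp4, the protease that inactivates CXCL12, had log2 intensities of 3.42 and 2.92 on the CAR arrays, against 4.62 on the array labelled PaS. Both CAR values lay below their array's median, and the PaS value lay above the upper quartile of 4.52 on its own. Dpp4 fell by 1.45 log2 units in CAR cells (SE 0.34; 95% interval -2.31 to -0.59; limma adjusted p = 0.0487), and 882 genes (4.42%) had a larger difference in that direction. The call lies close to the threshold: with dim values set to the floor the difference was -1.33 and the call was lost (adjusted p = 0.182).

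Dpp4 is also a surface marker of Sca-1+ fibroblasts that line vessels and connective tissue. Of 17 measured markers of such fibroblasts 10 fell and 0 rose in CAR cells (median -1.64), with summed intensities of 552 and 681 in CAR cells against 3651 on the array labelled PaS. The dermal matrix gene Dpt (-5.66), fibronectin, Fn1 (-4.61), and Thy1 (-4.05) led the list. T cells carry DPP4 as well: of 12 markers of T and NK cells 3 fell and 0 rose (median -0.67), with sums of 121 and 107 in CAR cells against 363 on the array labelled PaS. These were Thy1, Cd2 (-1.59) and Il7r (-1.56), while the T cell receptor complex genes Cd3d, Cd3e and Cd3g did not pass the test. Thy1 is also in the fibroblast list and Il7r in the B lymphoid list, which leaves Cd2 as the gene called for this list alone. Thy1 was the brightest T and NK marker on the array labelled PaS, at 7.67, so the sum there rests largely on it. Of the fibroblast markers 58.8% and of the T and NK markers 25% were called lower, against 6.42% of all genes. Of the T and NK markers 3 lay at or above the array median in CAR cells and 4 on the array labelled PaS. With the floor, 6 fibroblast markers were called lower, to be read beside the count of all genes called lower under that setting. Some of the 6, Dpt among them, had both CAR values on the floor, where a call uses no spread of its own. They include a gene not called as reported. The part of these lists in the Dpp4 difference was not tested.

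**Figure D2:**
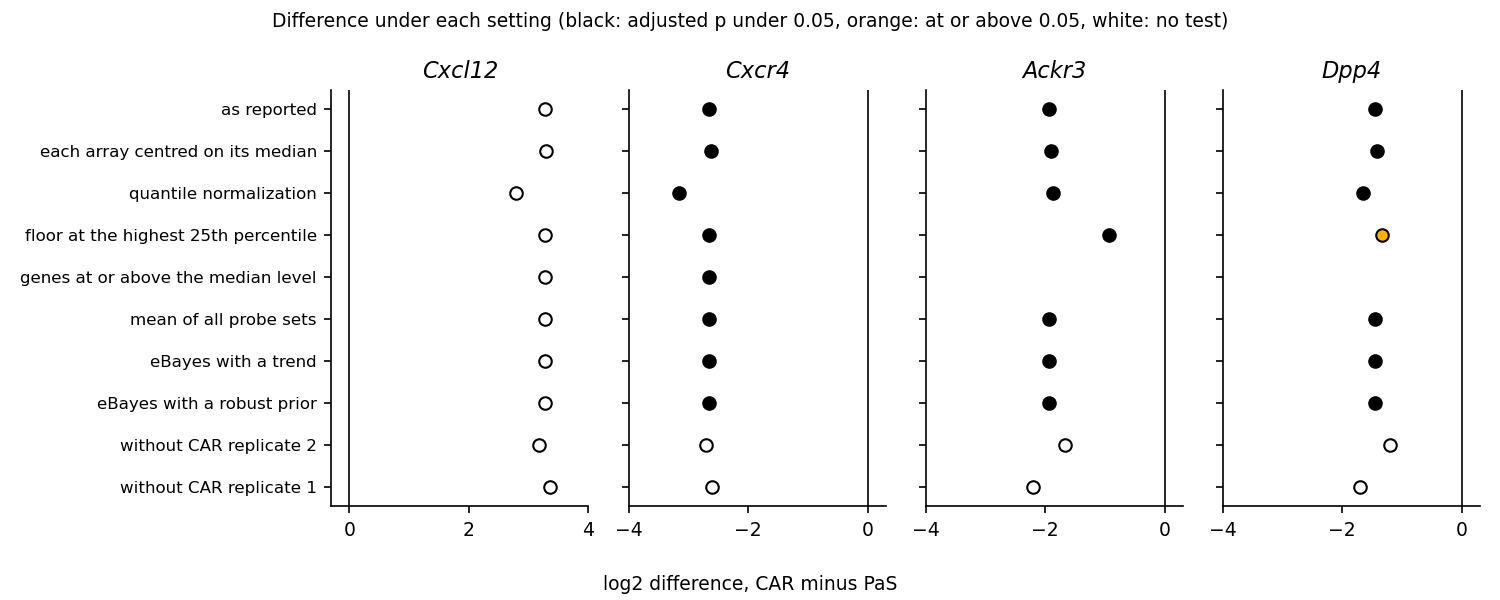
Log2 difference, CAR minus PaS (horizontal axis), of the 4 genes as reported and under 9 alternative settings (rows); black points have a limma adjusted p under 0.05, orange points do not, white points have no test, and a missing point is a gene not tested there. The direction is the same in every row for each gene, the floor for dim values takes Ackr3 to -0.93, and orange marks Dpp4 under that floor. Cxcl12 has no test in any row.

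**Figure D3:**
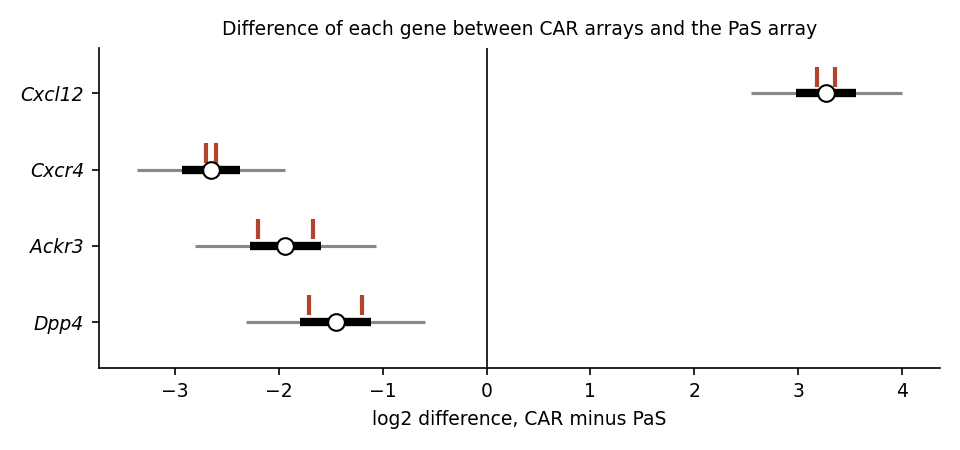
Log2 difference, CAR minus PaS (horizontal axis), of the 4 genes; circles are the fitted difference, black bars the SE, grey lines the 95% interval, and red ticks the difference of each CAR array from the array labelled PaS. Cxcl12 lies at 3.27, and the intervals of Cxcr4, Ackr3 and Dpp4 end below 0, that of Dpp4 at -0.59.

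Ratios between genes within an array do not depend on a shift of the whole array, but those with Ackr3 or Dpp4 rest on dim values. The log2 ratio of Cxcl12 to Cxcr4 was higher on the CAR arrays than on the array labelled PaS by 5.88 and 5.95 units. For the ratio of Cxcl12 to Ackr3 the changes were 4.85 and 5.55 units, and for Cxcl12 to Dpp4 they were 4.38 and 5.06 units. With dim values at the floor these were 4.11 and 4.28 units for Ackr3 and 4.38 and 4.81 for Dpp4, so the ligand changed unequally with both by over 4 units on either CAR array. Among the 3 lower genes the ratios were not settled by these data. Cxcr4 to Ackr3 changed by -1.03 and -0.40, or by -1.78 and -1.67 with the floor, and Cxcr4 to Dpp4 by -1.50 and -0.89, or by -1.50 and -1.14. The ratio of Ackr3 to Dpp4 changed by -0.47 and -0.49, and with the floor it turned sign, to 0.27 and 0.53. These changes are values without a test.

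**Figure D4:**
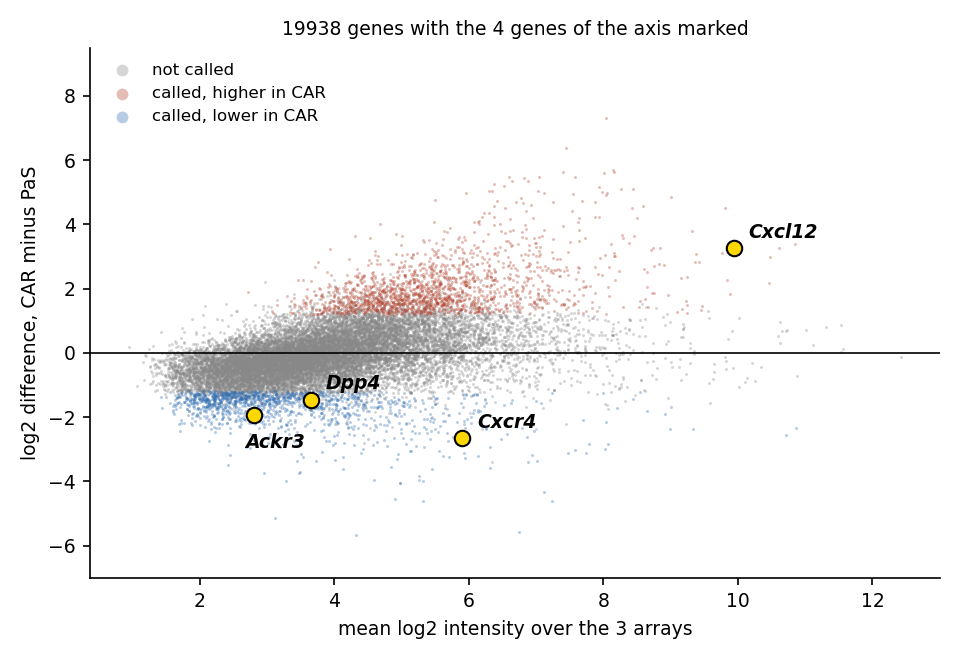
Log2 difference, CAR minus PaS (vertical axis), against the mean log2 intensity over the 3 arrays (horizontal axis) for 19938 genes; red and blue points passed limma's test at an adjusted p under 0.05, and gold circles are the 4 genes. Cxcl12 and Cxcr4 lie among brighter genes in opposite directions, and Ackr3 and Dpp4 lie on the dim side, where most calls are lower in CAR cells.

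Genes that act on Cxcl12 in marrow stroma were higher in CAR cells. Of 7 measured regulators of its transcription or release 6 rose and 0 fell, with a median log2 difference of 2.63. That is 85.7% called higher, against 8.56% of all genes and 16.6% of those at or above the median level. With the floor for dim values, 1 of the regulators was called, and fewer of all genes were called higher too. The transcription factors Ebf3, Foxc1 and Ebf1, which maintain CAR cells, rose by 4.91, 3.04 and 2.63 log2 units. Gja1, the gap junction protein connexin 43 through which stromal cells communicate, rose by 3.20 units, at 9.64 and 9.90 on the CAR arrays against 6.57 on the array labelled PaS. Sp1, which binds GC boxes such as those printed for Cxcl12 and also for Cxcr4 and Ackr3, and the hypoxia factor Hif1a rose less, by 1.60 and 1.56 units. The remaining gene, Gjc1, another connexin, stood at 4.84 and 5.86 on the CAR arrays and 3.58 on the array labelled PaS (adjusted p = 0.0655). Foxc1 and Ebf3 also stand in the list of CAR cell markers, of which 16 of 16 rose, with a median of 4.69 and summed intensities of 10581 and 12561 in CAR cells against 546 on the array labelled PaS; 7 were called with the floor. Lepr, Igfbp4 and Esm1 led that list, at 5.70, 5.63 and 5.61, and Cxcl12, at 3.27, differed by less than its median.

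Of 4 other ligands of the receptors that were measured, 1 fell and 0 rose in CAR cells, with a median of -0.52. The 25% that fell is 1 gene, against 6.42% of all genes called lower. Hmgb1, a chromatin protein that forms a complex with CXCL12 once released, fell by 1.85 log2 units (adjusted p = 0.0335), at 3.38 and 3.94 in CAR cells against 5.52 on the array labelled PaS. Adm, the ACKR3 ligand adrenomedullin, had 2.91 and 3.86 on the CAR arrays and 2.45 on the array labelled PaS (adjusted p = 0.210). Mif, which binds CXCR4 and ACKR3, and Cxcl11 did not pass either. With the floor 0 of these ligands were called.

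Of 26 measured genes that carry or end the signal of CXCR4, 3 rose and 5 fell, with a median of -0.24. The share that rose, 11.5%, is near the 8.56% of all genes called higher, and the share that fell was 19.2%, against 6.42%. With the floor 0 rose and 3 fell, while 534 of all 19938 genes were called higher and 2100 lower. The share that fell is then near that of all genes. The inhibitory G protein subunit Gnai1 rose by 2.70 log2 units, Rgs16, which switches such G proteins off, by 2.54, and the ubiquitin ligase Itch, which sends human CXCR4 to the lysosome, by 1.40. Rgs18, a relative of Rgs16 found in platelets and blood cells, fell by 3.37 units and Arrb2, the arrestin that uncouples chemokine receptors, by 3.28. The phosphoinositide kinase Pik3cg fell by 2.21, the small GTPase Rac2 by 2.42 and its activator Dock2 by 1.42; these 3 are used mainly by blood cells, whose markers are given above. Adjusted p in limma's test ran from 0.0107 to 0.0371 over the 8 genes. Arrb2, Rac2 and Dock2 lost their calls with the floor, and Rgs18 then had both CAR values on the floor and so no spread of its own. The 3 that fell under that setting thus include a gene not called as reported.

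Among the other atypical chemokine receptors, Ackr4 differed from Ackr3 in direction. Ackr4, a scavenger of CC chemokines, had 7.27 and 7.48 on the CAR arrays against 3.89 on the array labelled PaS, a rise of 3.49 log2 units (SE 0.29; limma adjusted p = 0.0107). Ccrl2, which binds chemerin, fell by 2.06 units, and Ackr1, the Duffy antigen of venules and red cells, by 1.82. Of the 4 measured, 1 rose and 2 fell, and Ackr2 did not pass, with a list median of -0.99. These shares of few genes, 25% and 50%, stand beside 8.56% of all genes called higher and 6.42% called lower. With the floor the Ackr4 call was lost (adjusted p = 0.0678), and 0 rose and 1 fell. The gene that fell was Ackr1 (-1.41), with both CAR values on the floor and so no spread of its own, while Ccrl2 lost its call.

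Among the relatives of DPP4, Fap stood opposite to Dpp4. Fap, fibroblast activation protein, is the closest relative of DPP4 and had 7.89 and 7.84 on the CAR arrays, against 4.48 on the array labelled PaS. Both CAR values were far above, and the rise was 3.38 log2 units (SE 0.28; limma adjusted p = 0.0107). Dpp10, a relative without enzymatic activity, fell by 1.82 units, with CAR values of 1.71 and 1.82 at the dim end. Of 8 measured relatives 1 rose and 1 fell, with a median of 0.20. That is 12.5% each way, from 1 gene each, near the 8.56% of all genes called higher and 6.42% called lower. With the floor Dpp10 stood at -0.42, with both CAR values on the floor.

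Other proteases that cut CXCL12 also differed in both directions, with 2 of 10 rising, 3 falling and a median of -0.80. These shares, 20% and 30%, stand beside 8.56% of all genes called higher and 6.42% called lower. The collagenase Mmp13 rose by 5.44 log2 units, at 8.22 and 9.04 on the CAR arrays against 3.19 on the array labelled PaS, and the membrane-bound Mmp14 rose by 3.03, at 7.97 and 8.06 in CAR cells against 4.99 on the array labelled PaS. Ctsg, cathepsin G of neutrophil granules, fell by 3.05 units, with unequal CAR arrays at 4.63 and 3.59 against 7.16 on the array labelled PaS. Mmp9, a gelatinase stored in neutrophils, fell by 2.38, and the carboxypeptidase Cpm by 1.47. Elane, neutrophil elastase, had 6.12 and 4.69 in CAR cells against 7.78 on the array labelled PaS and did not pass (adjusted p = 0.0592). Elane also stands in the neutrophil list. With the floor 1 of the proteases rose and 1 fell, and the Mmp13 call was lost (adjusted p = 0.147). The gene that fell was Cpm (-0.49), with both CAR values on the floor and so no spread of its own, while Ctsg and Mmp9 lost their calls.

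**Figure D5:**
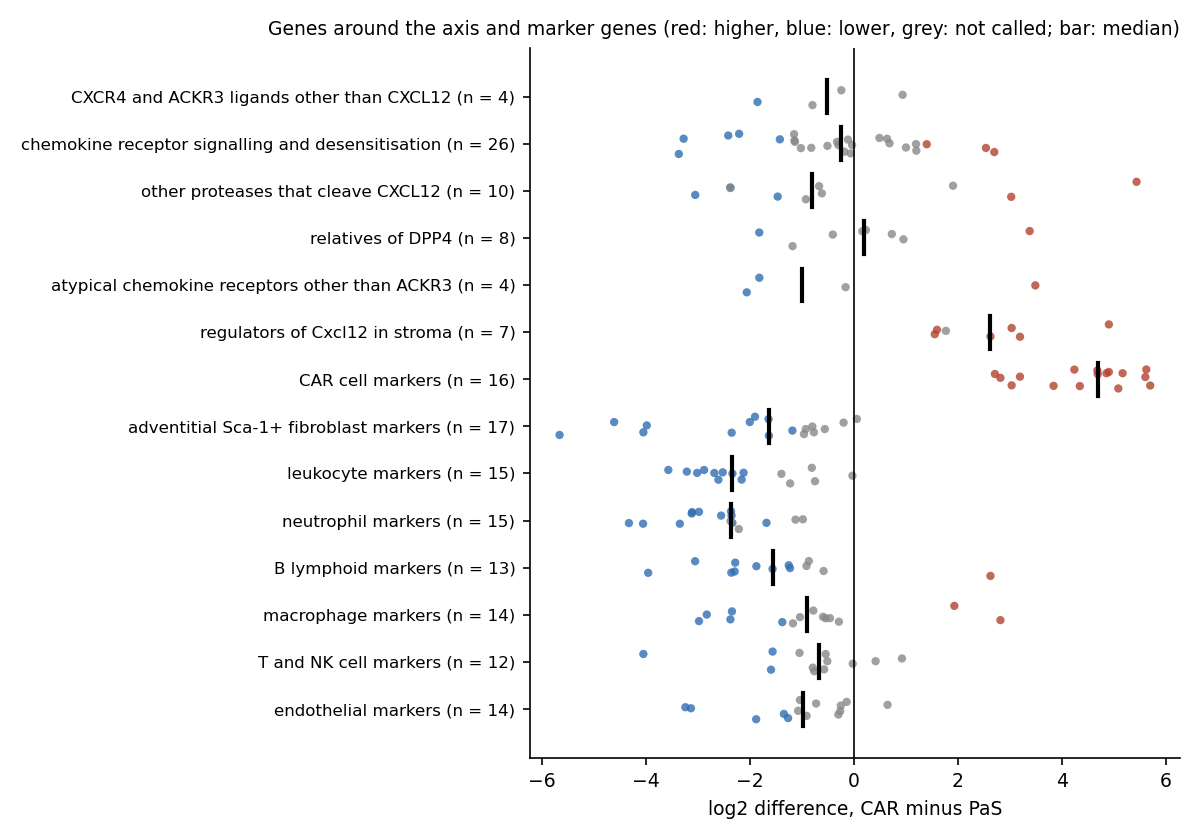
Log2 difference, CAR minus PaS (horizontal axis), of each measured gene in 14 lists; red, blue and grey points are genes called higher, called lower and not called by limma at an adjusted p under 0.05, and black bars are list medians. Regulators of Cxcl12 and CAR markers lie to the right, blood cell, endothelial and Sca-1+ fibroblast markers mostly to the left, and Ackr4, Fap, Mmp13 and Mmp14 stand to the right of their lists.

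Genes with the most similar pattern over the 3 arrays were found by the distance between log2 values after each gene's own mean was subtracted, among 11045 genes. With 3 arrays many genes share a pattern: 181 lay within a distance of 0.5 of Cxcl12, 113 of Cxcr4, 295 of Ackr3 and 668 of Dpp4. Nearest to Cxcl12 were Cldn1, Tmem126b, Serping1, Islr and Fat1, with differences from 3.23 to 3.35. Serping1, which encodes the C1 inhibitor of complement, was at 11.59 and 11.83 on the CAR arrays and 8.43 on the array labelled PaS. Nearest to Cxcr4 were Lcp1, Arhgap11a, Aurkb, Mcemp1 and Ms4a3, with differences from -2.77 to -2.54. Lcp1, the plastin of leukocytes, was at 5.90 and 6.09 in CAR cells against 8.60 on the array labelled PaS. Nearest to Ackr3 were Zpbp, Sorl1, Arhgap45, Strbp and Cdh20, and nearest to Dpp4 were Ripor2, Clec2m, Stab1, Prkcb and Glp2r.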

How the data were processed

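The values are signal intensities deposited by the authors, 1 per probe set and array, on a linear scale; RMA in Affymetrix Expression Console is named as their source, per the submitters' processing notes, without a version or genome build. RNA was amplified from small inputs with a NuGEN kit, per the labels' protocols. Log2 was taken without a pseudocount. Of 35556 probe sets, 21789 carried 1 gene symbol, 1621 several and 12146 none in the platform annotation. Each gene was represented by its brightest probe set on average over the 3 arrays (999 genes had several; each gene of the axis had 1). Symbols were updated through gene identifiers, of which 21698 matched.

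CAR was compared with PaS in a two-sided linear model without covariates (limma 3.58.1, lmFit then eBayes, R 4.3.3; Benjamini-Hochberg over 19938 genes, threshold 0.05), with 1 residual and 4.20 prior degrees of freedom. The fit was also run on simulated arrays. There each gene had the same variance on every array, so the error borrowed for the array labelled PaS was not tested. The 4 genes and the 14 lists were chosen with earlier results of these data known, so lists are described by counts and medians, and the tests of the 4 genes, adjusted over all genes, are not independent of those results. Of 182 list entries, those measured by a single-symbol probe set were used. Named are every pathway gene past the test (or the 2 with the largest difference), 3 genes per marker list, and 5 genes most like each gene of the axis, without predicted genes, microRNAs and olfactory receptors; Cd3d, Cd3e, Cd3g, Ackr2, Elane, Mif, Cxcl11 and Gjc1 were added after their values were seen. Promoters are from RefSeq (GRCm38.p6); all 4 genes matched.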

Additional observations from a re-analysis of the deposited data

How the results depend on the processing

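The 4 differences kept their direction under all 9 alternatives that gave a value, and the 3 tested genes kept their side of the threshold except Dpp4 with the floor (-1.33, adjusted p = 0.182), where Ackr3 has no spread of its own. Cxcl12, which has no test, moved beyond its replicate spread after quantile normalization (2.80). The floor puts both CAR arrays of 6058 genes on the same value, which takes away their spread and changes the error of every gene. Ackr3 and Dpp4 lie below the median level and were not tested among genes at or above it. Of all genes, 2635 were called higher and 2831 lower after quantile normalization and 534 and 2100 with the floor, against 1706 and 1281 as reported; when genes below the median level were left out, 510 were lower. Of 196 list counts under the alternatives, 30 moved by over 1.5 times, 17 of them with the floor. The floor counts given for each list stand beside the 534 and 2100 of all genes called there. Of 70 other named genes none changed direction, and 43 lost their call with the floor. The log2 ratio of Ackr3 to Dpp4 turned to 0.40 with the floor, a setting added for ratios after seeing the data. Leaving out a CAR array gave ranges of 3.18 to 3.36 for Cxcl12, -2.70 to -2.60 for Cxcr4, -2.20 to -1.67 for Ackr3 and -1.71 to -1.20 for Dpp4, without a test since 1 array faced 1. No paired analysis was possible because the groups came from different mice, and replicate numbers do not mark pairs. Without detection calls a dim value cannot be told from background, which limits Ackr3 and Dpp4 in CAR cells.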
